A study of Homo sapiens with 6 samples.

Results

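The RNAs described here are the U4, U5 and U6 small nuclear RNAs of the major spliceosome's tri-snRNP. They were taken by gene name from a table of 142 small RNAs, in which 4 rows match: RNU4-1, RNU4-2, RNU5 WT and RNU6 WT. The first pair are single U4 genes, the U5 row sums reads of 5 genes and the U6 row sums reads of 13 gene copies. The 6 libraries hold sequenced 3′ ends of nascent small RNAs. The cells were HEK 293T-REx TOE1-degron cells, a human embryonic kidney line whose TOE1, a 3′ exonuclease of small RNAs, is fused to a degron that auxin triggers. In 3 libraries TOE1 was present, and in 3 it had been removed by 8 hours in 600 µM indole-3-acetic acid, an auxin. All 6 carry the degron and were labelled with 0.2 mM ethynyl uridine for 8 hours, so that RNA made in that time could be captured. The labels do not say what the TOE1-present cells received in place of auxin, nor whether replicates were separate cultures. The p-values thus measure library-to-library spread only, and that spread may be technical. Adaptor and condition were partly confounded: replicates 2 and 3 of the TOE1-depleted group carried 3′ adaptor AG11, and the other 4 libraries AG10.

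In the spliceosome, U6 is delivered base-paired to U4, and U5 joins the pair to form the tri-snRNP. U4 is released when the spliceosome is activated, U6 then forms the catalytic centre, and a loop of U5 holds the exon ends. U4 and U5 are made by RNA polymerase II as 3′-extended precursors, receive a ring of Sm proteins and a trimethylated cap in the cytoplasm, and are trimmed to their mature 3′ ends. U6 is made by RNA polymerase III, ends in a run of uridines, which a ring of Lsm proteins binds, and carries a different cap. The rows therefore set RNAs with the Sm ring beside one without it.

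The sequences show what the reads were aligned to, and why their ends can be read to different precision. RNU4-1 lies at chr12:120293097-120293237 and RNU4-2 at chr12:120291763-120291903, both on the minus strand of hg38 and both 141 nt long. They are given 5′ to 3′ as in the genome, and capitals mark AATTTTTG, which holds the U4 Sm site.
RNU4-1: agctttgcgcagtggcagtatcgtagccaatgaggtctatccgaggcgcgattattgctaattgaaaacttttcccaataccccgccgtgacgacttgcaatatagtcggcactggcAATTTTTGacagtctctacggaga
RNU4-2: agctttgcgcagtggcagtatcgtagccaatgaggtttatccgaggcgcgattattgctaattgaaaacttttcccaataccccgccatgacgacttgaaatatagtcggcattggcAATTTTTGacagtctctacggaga
Between them 4 bases differ, written with the base of RNU4-1 first, the position counted from 1 at the 5′ end, and the base of RNU4-2: C37T, G88A, C99A and C113T. The last 28 bases are identical, as are the first 9 bases after the annotated end. Where a read's extension is no longer than that, only the differing bases inside the RNA tell the genes apart.

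AATTTTTTG, with 1 more T than in U4, holds the Sm site of U5. All 5 U5 genes differ in sequence, and they run from 116 to 120 nt. The U6 copies are all 107 nt long. The search for AATTTTTG or AATTTTTTG covered both strands of 189 gene models of the table's RNAs. One or the other was found on the transcribed strand of 10 models (5.29%) and on the opposite strand of 0: both U4 genes, the 5 U5 genes, RNU4ATAC, RNU11 and RNU12. No U6 copy held either.

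The bases around the annotated end bear on what counts as templated. For U4, the last 15 annotated bases are in lower case here and the 15 genomic bases that follow are in capitals.
RNU4-1: cagtctctacggagaCTGAATTTTCTTGCA
RNU4-2: cagtctctacggagaCTGAATTTTTAAAAG
In the U5 and U6 rows the copies summed do not share these bases. The base after the annotated end is A in 2 U5 genes and C, G or T in 1 each. Of the 13 U6 copies, 11 are identical over their first 105 bases, but 9 end in ttttt, 2 in ttttg and 2 in tttaa, and all 13 continue differently. In RNU6-9 the run of T goes on past the annotated end to 15 bases, and in RNU6-37P the genome continues with A. An A or U added to such an RNA after transcription is templated by some copies and not by others, and the sources used here do not say how reads that fit several copies were assigned. By symbol, 8 of the 13 U6 copies are named as pseudogenes, among them RNU6-37P.

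The U4, U5 and U6 rows were thinly covered. Together they held 1610 reads, or 0.543% of all reads, with 0.396% to 0.835% in a library. U6 had 1253 reads, RNU4-2 140, RNU4-1 111 and U5 106, against a median of 170.5 over all rows. Library totals ran from 32813 to 75353 reads. Reads of 3 other rows with at least 1000 reads stood at 0 in 2 to 4 libraries, a model each of RMRP, 7SK and U2, and replicate 1 of both groups was unlike the rest there. These 3 rows took 6.22% to 29.4% of a library's reads, so each library-wide scaling below is given with its effect on the U4, U5 and U6 rows. The table held small RNAs only, and the loss of TOE1 was not checked here.

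The first comparison asked whether the 3′ end of these RNAs lay elsewhere without TOE1. Ends were deposited as the mean difference between conditions for the genome-templated part and for the total end with its untemplated tail, in nt, positive when further downstream. None of the 4 passed an adjusted p under 0.05 for either end. Of 139 RNAs with a p, 2.16% passed for the genome-templated end, and 2.16% also for the total one. The intervals of the 4 were wide, and their differences went both ways.

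With TOE1 present, U4 reads ended well past the annotated end. The authors' deposited table gives a median position of 5 nt and a mean of 7.49 nt for RNU4-2, and of 4 nt and 4.92 nt for RNU4-1, where 0 is read as the annotated end. By the mean these were 11th and 16th most downstream of 142 RNAs in the authors' deposited table. U5 stood at a median of 2 nt and a mean of 1.43 nt, and U6 at 0 and 0.208 nt, ranks 67 and 108 by the mean, in the authors' deposited table. The header does not say whether this position counts the untemplated tail. No position without TOE1 was computed from it.

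For RNU4-1 the genome-templated end lay 0.700 nt further downstream without TOE1 in the authors' deposited table, with a 95% interval of −0.0979 to 1.5 nt recovered from the deposited p (adjusted p = 0.432). Its total end differed by 1.17 nt in the authors' deposited table (interval −0.797 to 3.13, adjusted p = 0.610). RNU4-2 differed by 0.0404 nt for the genome-templated end in the authors' deposited table (interval −1.99 to 2.07, adjusted p = 0.973). For its total end the value was −0.153 nt in the authors' deposited table (interval −4.18 to 3.88, adjusted p = 0.952). The intervals of the U4 genes overlapped, and the difference between the genes was not tested. Each genome-templated interval includes the shift of U1, which the authors' deposited table puts at 0.888 nt (interval 0.695 to 1.08, adjusted p = 0.009999). The upper bound of RNU4-1 lay below the lower bound of U2, whose shift in the authors' deposited table was 2.26 nt (interval 1.97 to 2.56, adjusted p = 0.00403); that difference was not tested.

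In U5, the templated and total values had opposite signs, with the widest gap of the 4 rows; no difference was called. The authors' deposited table gives −2.35 nt for its genome-templated end, that is upstream (95% interval −3.69 to −1.01 nt). The unadjusted p of 0.00817 in the authors' deposited table ranked 6th of the 139, and adjusted over all of them it was 0.189. The total end, in which the untemplated bases are added back, was 0.681 nt by the authors' deposited table (interval −0.698 to 2.06, adjusted p = 0.713). Of the 4 rows, 1 had an unadjusted p under 0.05 for the genome-templated end, U5, against 12.9% of all RNAs and 7.19% counting upstream shifts alone. The U5 values rest on 36 reads with TOE1 and 70 without it.

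U6, without an Sm ring, had signs opposite to those of U5. RNU4-2, an RNA with the Sm ring, had the same signs as U6, but its intervals for both ends included 0. Whether the signs go with the ring was not tested. The authors' deposited table puts the genome-templated end of U6 at 0.369 nt (interval −0.780 to 1.52, adjusted p = 0.794). For the total end the authors' deposited table has −0.593 nt (interval −0.998 to −0.188, adjusted p = 0.354). For the total end, too, 1 of the 4 had an unadjusted p under 0.05, U6 at 0.0153 in the authors' deposited table, against 7.91% of all RNAs and 5.76% counting upstream shifts alone. A Kolmogorov-Smirnov p in the authors' deposited table was 0.591 for the total end of U6 and 0.489 for the genome-templated end of U5. After adjustment that test called 0 of the 4 rows, against 9.22% of RNAs for the genome-templated and 17% for the total end. The medians of the 4 were 0.205 nt for the genome-templated and 0.264 nt for the total end, against −0.102 and −0.159 nt over all RNAs with a p.

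**Figure D1:**
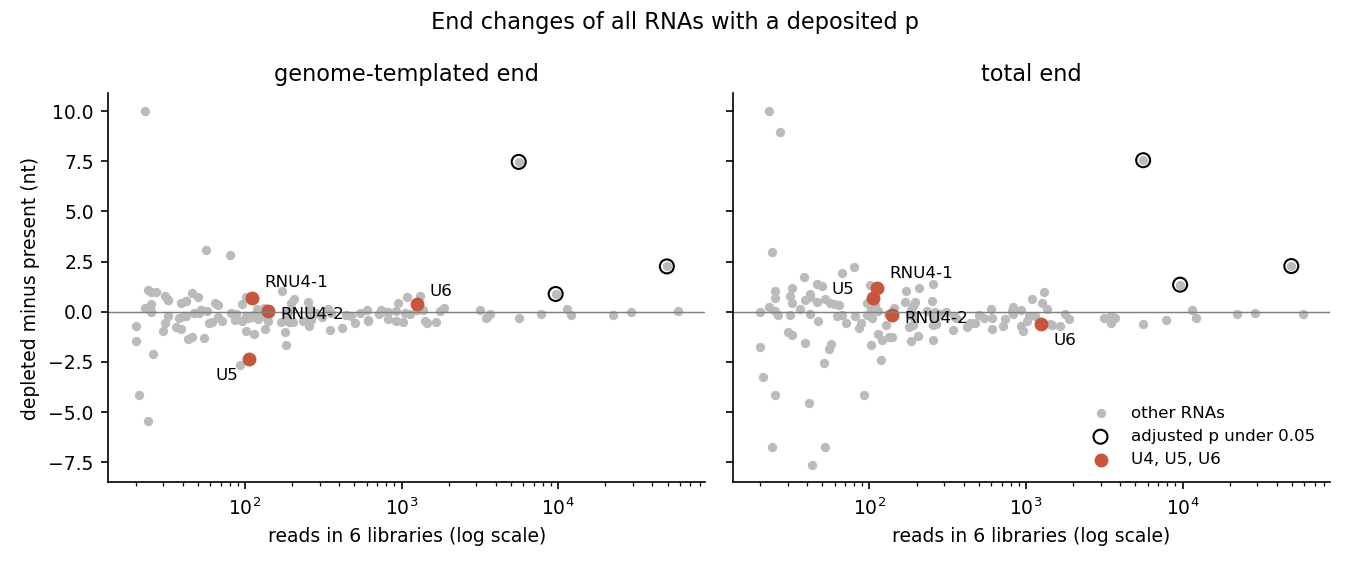
Difference of the genome-templated end (left) and of the total end (right) in nt, TOE1-depleted minus TOE1-present, against reads in 6 libraries on a log scale, 1 point per RNA with a deposited p. U4, U5 and U6 are filled red, and open circles mark the 3 RNAs with an adjusted p under 0.05, which include none of them; U5 lies at −2.35 nt on the left and 0.681 nt on the right.

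**Figure D2:**
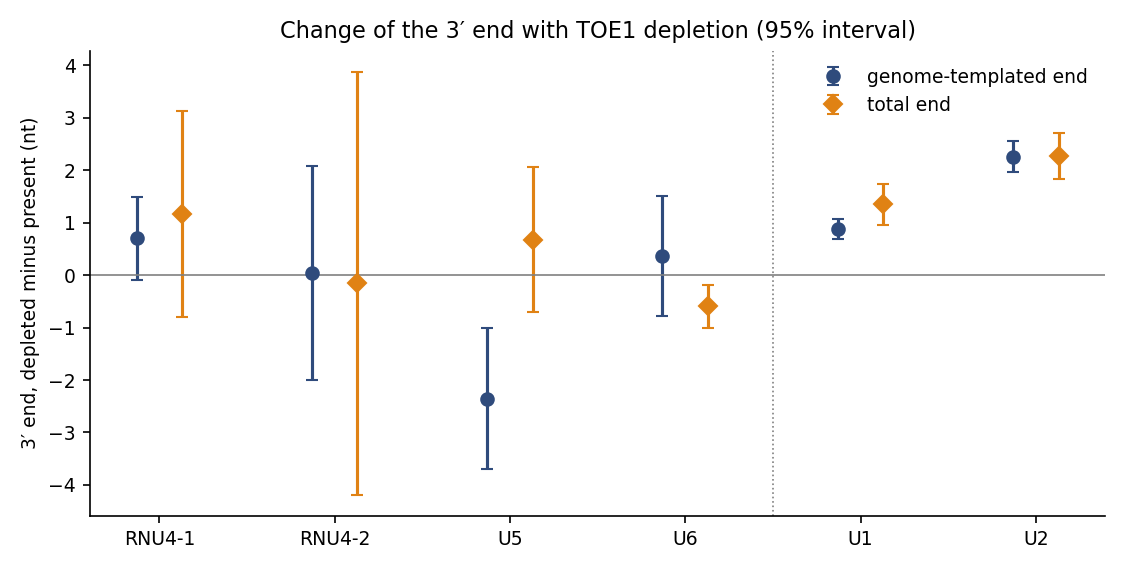
Difference of the 3′ end in nt (TOE1-depleted minus TOE1-present) with 95% intervals recovered from the deposited p, for the genome-templated end (circles) and the total end (diamonds), with U1 and U2 right of the dotted line. The intervals of U1 and U2 lie above 0, those of both U4 genes include 0, and the U5 values lie on opposite sides of 0.

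The other spliceosomal RNAs of a fixed list, U1, U2, RNU11, RNU12, RNU4ATAC and RNU6ATAC, held 2 of 6 calls downstream and 0 upstream for each end, U1 and U2. RNU6ATAC, the minor spliceosome's counterpart of U6, resembles it in its ring and polymerase and had 3162 reads. The authors' deposited table gives it 0.0703 nt for the genome-templated end (interval −0.176 to 0.317, adjusted p = 0.833) and −0.328 nt for the total end (interval −0.814 to 0.158, adjusted p = 0.557). RNU4ATAC, the counterpart of U4, had 27 reads, and its genome-templated value of 0.996 nt in the authors' deposited table carried an interval of −7.70 to 9.69 nt (adjusted p = 0.912).

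The second comparison concerned untemplated bases, those at a read's 3′ end that the aligned gene does not encode. No tail measure of U4, U5 or U6 passed an adjusted p under 0.05 among the 13 deposited. Over all RNAs, 0% to 1.37% were called in a measure: 0.787% for U bases, 1.08% for tails of 2 or more A, 1.37% for 3 or more A and 0% for the rest. The total end difference minus the genome-templated one equalled the summed differences of A, U, C and G bases to within 1e-06 nt in all 142 rows.

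Of the 4 rows, U5 had the widest gap in tail length between the conditions. U5 reads carried 0.915 untemplated bases on average with TOE1 and 3.95 without it, while the median over all RNAs was 0.926 and 0.870. All 4 bases contributed in the authors' deposited table: A went from 0.549 to 1.16, U from 0.133 to 0.914, C from 0.10 to 0.686 and G from 0.133 to 1.19 nt per read. The deposited p for U, C and G were 0.0152, 0.0111 and 0.0187 in the authors' deposited table, and their adjusted p were 0.472, 0.708 and 0.597. Unadjusted p under 0.05 were found in 8.66%, 3.12% and 6.02% of all RNAs for these bases, and with a higher value without TOE1 in 6.3%, 2.34% and 4.51%. The base that follows the annotated end differs among the 5 U5 genes, and whether a base untemplated by one is templated by another was not tested.

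RNU4-2 had the longest untemplated part of the 4 with TOE1, 4.28 nt per read, rank 8 of 142 RNAs, and 4.09 nt without it. It was made up of A (1.6 nt), G (1.6 nt), U (0.636 nt) and C (0.453 nt) with TOE1 in the authors' deposited table. RNU4-1 carried 0.984 nt with TOE1 and 1.45 nt without it, of which A made up 0.595 and 1.32 nt in the authors' deposited table. The A difference of RNU4-1 was 0.728 nt (−0.181 to 1.64 nt, adjusted p = 0.448) in the authors' deposited table. U6 went from 2.09 to 1.12 nt, with each base lower without TOE1 and A the largest part of the difference at −0.391 nt (−0.806 to 0.0251 nt, adjusted p = 0.407) in the authors' deposited table. The rows thus differed in which bases made up their tails: mostly A in RNU4-1 without TOE1, and a mixture in RNU4-2, U6 and, without TOE1, U5.

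**Figure D3:**
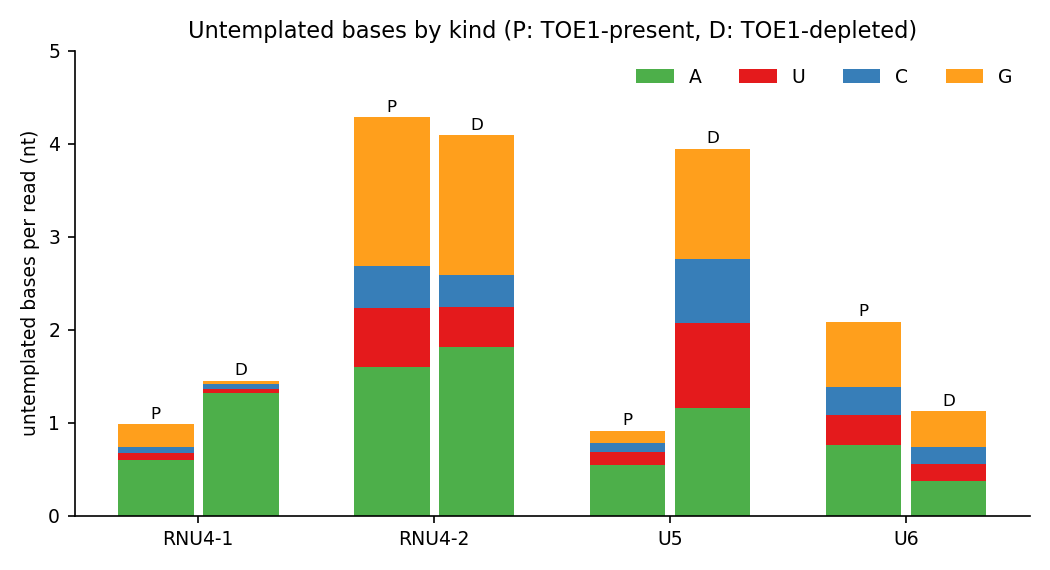
Mean number of untemplated bases per read in nt, stacked by base, with TOE1 (P) and without it (D), 1 pair of bars per row; values are means per condition with no per-library points. U5 goes from 0.915 to 3.95 nt and U6 from 2.09 to 1.12 nt, and without TOE1 nearly all of the RNU4-1 bar is A.

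The share of reads with an A tail was deposited by tail length. No difference of the 4 passed an adjusted p under 0.05, so the values for tails of exactly 1 A and of 2 or more A are given as a description. Of the 4, 3 had an unadjusted p under 0.05 for a single A, all lower, against 19.5% of all RNAs in either direction and 17.9% lower. The median difference of the 4 was −15.7 percentage points, against −8.94 over all RNAs with a p. A lower share of A tails was thus common in the table. Tails are deposited per condition only, and adaptor and condition cannot be told apart for them.

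In U5 a single A was listed in the authors' deposited table on 44.9% of reads with TOE1 and on 9.52% without it. The difference was −35.4 percentage points (95% interval −57.1 to −13.6, adjusted p = 0.232), and its p was the second lowest of the 123 RNAs with one. Tails of 2 or more A were at 0% and 1.45% in the authors' deposited table. Tails of 3 or more A were listed at 0% in both conditions. The authors' deposited table has A bases of U5 at 0.549 and 1.16 nt per read, against any A tail at 44.9% and 11%. Neither difference was called. Without TOE1, A tails this few and short hold only a minor part of the A bases. The rest lay in untemplated stretches not listed as A tails. In U6 a single A went from 15.5% to 4.52% in the authors' deposited table, by −11 percentage points (−21.7 to −0.278, adjusted p = 0.232). Any A tail on U6 was listed in the authors' deposited table at 17.1% and 5.43% (adjusted p = 0.214), and U5 and U6 were the 2 of 4 rows lower for any A tail at an unadjusted p under 0.05, against 18.8% of all RNAs. In neither U5 nor U6 were longer A tails listed as frequent in either condition. U5 had only 36 reads with TOE1 and 70 without it. Its 0% for 2 or more A with TOE1 allows a share of up to 8.33%, for counting error only.

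For RNU4-1, the split of A-tailed reads by length is given beside their total share, and none of its tail differences was called. By the authors' deposited table any A tail was found on 29% of reads with TOE1 and 30.1% without it, a difference of 1.18 percentage points (−17.8 to 20.2, adjusted p = 0.900). Within that share, a single A went from 26.2% to 5.72% in the authors' deposited table (difference −20.5 points, −36.7 to −4.22, adjusted p = 0.232). Tails of 2 or more A went from 2.78% to 24.4% in the authors' deposited table (difference 21.6 points, 6.65 to 36.6, adjusted p = 0.213). An unadjusted p under 0.05 for tails of 2 or more A was found in 10.8% of all RNAs and with a higher share in 3.23%, and among the 4 rows for RNU4-1 alone. Most of these tails had 3 or more A, at 23% without TOE1 in the authors' deposited table (adjusted p = 0.310), where 4.11% of all RNAs were higher at an unadjusted p under 0.05. The RNU4-1 shares rest on 28 reads with TOE1 and 83 without it.

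RNU4-2, whose last 28 bases are those of RNU4-1, had a single A on 12.4% and 10.3% of reads in the authors' deposited table. Tails of 2 or more A stood at 9.56% and 14.4% in the authors' deposited table, a difference of 4.80 points (−3.28 to 12.9, adjusted p = 0.600). The interval for RNU4-2 overlapped that of RNU4-1, and the difference between the genes was not tested. For U1, the authors' deposited table lists 2 or more A on 4.38% of reads when TOE1 was present and 7.91% when it was depleted (adjusted p = 0.398). The U2 shares there, in the authors' deposited table, were 1.38% and 2.92% (adjusted p = 0.207).

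**Figure D4:**
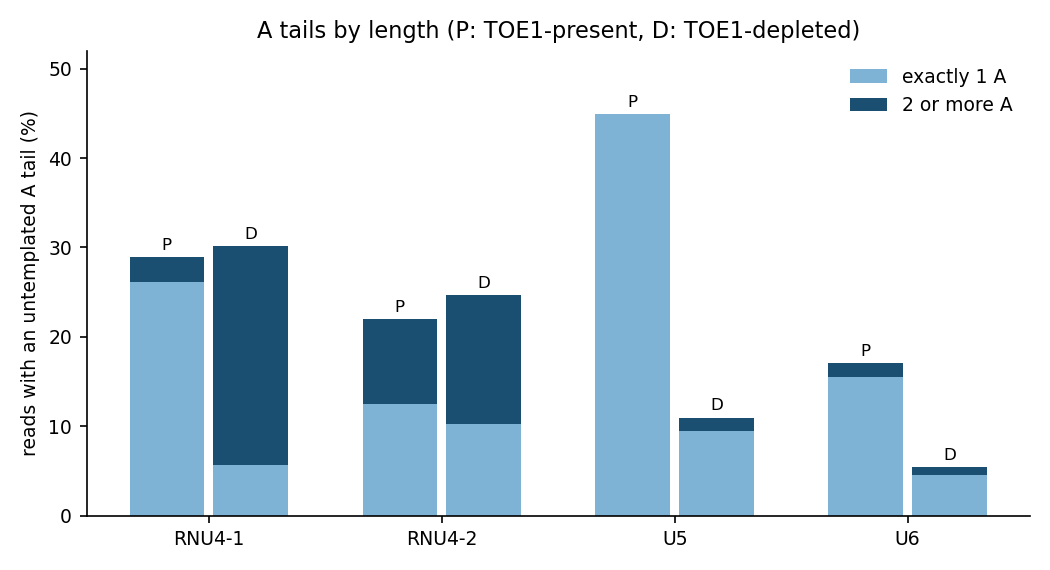
Percent of reads with an untemplated A tail, split into exactly 1 A (light) and 2 or more A (dark), with TOE1 (P) and without it (D); means per condition with no per-library points. The RNU4-1 bars have near-equal heights of 29% and 30.1% but are mostly light in P and mostly dark in D, while the U5 bars go from 44.9% to 11%.

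Tails of U, which U6 is known to receive, were rare. The authors' deposited table lists tails of 1 or more U on 0.474% of U6 reads with TOE1 and 1.03% without it (difference 0.554 points, −0.540 to 1.65, adjusted p = 0.673). The share of tails with A and U on U6 was listed in the authors' deposited table at 0.726% and 0.496% (adjusted p = 0.819). RNU4-1, RNU4-2 and U5 were listed at 0% for U tails in both conditions. A count of 0 allows a share of up to 10.7%, 7.14% and 8.33% in their 28, 42 and 36 reads with TOE1, and 3.61%, 3.06% and 4.29% in their 83, 98 and 70 reads without it, for counting error only. A U added where the genome of a U6 copy has T is templated by that copy and would enter no tail. T follows the annotated end in 4 of the 13 copies, and how reads fitting several copies were assigned was not stated.

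The third comparison was of read number. None of the 4 rows passed an adjusted p under 0.05 in edgeR's quasi-likelihood test, where 7.92% of 101 RNAs did, and 27.7% had an unadjusted p under 0.05. A replicate block called 0 of the 4 rows and 17.8% of RNAs. Scaled counts are relative to the other RNAs of a library, so a change in the total amount of labelled RNA would not show in them. RNU4-1 had 12, 9 and 7 reads in TOE1-present replicates 1 to 3, and 31, 28 and 24 in the TOE1-depleted ones. After TMM scaling these were 284, 280 and 239 normalised read counts (CPM, read counts scaled to a common library size) with TOE1, and 456, 677 and 295 CPM without it. The depleted libraries all lay above the others, though replicate 3 did so narrowly. After TMM scaling, groups without overlap were found for 16.8% of all RNAs in that direction, and for RNU4-1 alone among the 4. The log2 change was 0.76 ± 0.38 SE (267.5 ± 25.1 against 476 ± 192 CPM, SD, n = 3 per group; edgeR adjusted p = 0.271). Scaled by library totals alone, RNU4-1 was called (log2 change 1.30 ± 0.40 SE; adjusted p = 0.0383, edgeR), as were 30.7% of RNAs. That scaling moved the median log2 change of all RNAs from 0.08 to 0.63, so RNU4-1 lay above the median by similar amounts under both scalings.

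RNU4-2 had 15, 16 and 11 reads with TOE1, and 58, 18 and 22 without it. Its TMM-scaled levels were 354, 498 and 375 CPM, and 852, 435 and 271 CPM. Depleted replicate 1 was the highest of the 6 libraries and depleted replicate 3 the lowest, so the groups overlapped. The log2 change was 0.35 ± 0.48 SE (edgeR adjusted p = 0.785), and −0.29 ± 0.34 SE without depleted replicate 1 (adjusted p = 0.765). In the AG10 libraries alone, where that library is the only depleted one, it was 1.04 ± 0.28 SE (adjusted p = 0.149). The error there comes from the TOE1-present libraries alone and assumes that the lone depleted library varies like them.

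For U5 the reads were 13, 10 and 13 with TOE1, and 34, 13 and 23 without it, or 307, 312 and 443 CPM and 500, 314 and 283 CPM. The groups overlapped after TMM scaling, and the log2 change was 0.07 ± 0.34 SE (adjusted p = 0.952, edgeR). By library totals alone the groups of U5 did not overlap, nor did those of RNU4-1. The share of all RNAs without overlap under that scaling is not given here, so this is a description only. The log2 change of U5 was then 0.59 ± 0.33 SE (adjusted p = 0.174, edgeR), near the median of 0.63 over all RNAs under that scaling. U6 had 186, 113 and 122 reads, then 441, 215 and 176, which gave 4395, 3521 and 4158 CPM with TOE1 and 6482, 5199.5 and 2166 CPM without it. The TOE1-depleted libraries of U6 stood on both sides of the TOE1-present ones, and the log2 change was 0.19 ± 0.38 SE (adjusted p = 0.867, edgeR). Without depleted replicate 1 the values were −0.16 for U6 and −0.25 for U5. In the AG10 libraries alone they were 0.66 and 0.49, with adjusted p of 0.224 and 0.418 under that same assumption. For RNU4-1 the value without that library was 0.73. The part of adaptor in these differences was not tested.

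**Figure D5:**
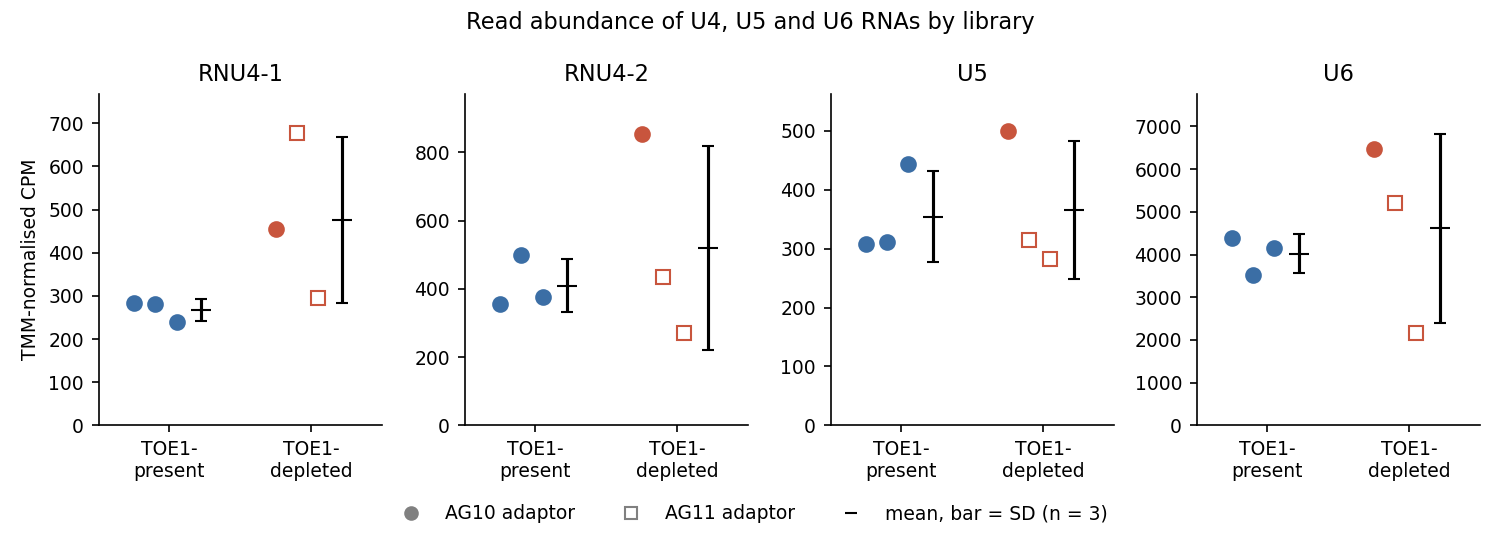
TMM-normalised read counts (CPM, read counts scaled to a common library size) in each library for RNU4-1, RNU4-2, U5 and U6, on linear axes from 0 with a separate scale per panel; circles are AG10 and open squares AG11 libraries, and the bar is the mean with SD (n = 3). The TOE1-depleted AG10 library is the highest for RNU4-2 (852 CPM), U5 (500 CPM) and U6 (6482 CPM), and the groups are apart for RNU4-1 only.

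Per nt of RNA, U6 was the most read of the 4, and the other rows lay far below it. The rows are unlike units, since U6 sums 13 copies and U5 sums 5 genes, while each U4 row is a single gene. Each read is a 3′ end, so reads need not grow with the length of an RNA, and levels per nt are given as a description. With TOE1 the TMM-scaled level was 37.6 ± 4.23 CPM per nt for U6, 3.03 ± 0.660 for U5, 2.90 ± 0.553 for RNU4-2 and 1.90 ± 0.178 for RNU4-1 (SD, n = 3). U5 and RNU4-2 differed by less than their spread, while the RNU4-1 libraries lay below those of RNU4-2, at the same length of 141 nt. Without TOE1 the levels were 43.1 ± 20.7 CPM per nt for U6, 3.68 ± 2.13 for RNU4-2, 3.38 ± 1.36 for RNU4-1 and 3.13 ± 1.001 for U5, and the last 3 differed by less than their spread. Capture needs labelled uridine, and U6 holds fewer uridines (25.5 on average over its copies) than U4 (38 and 40) or U5 (42.8). Per uridine U6 also stood highest, at 158 CPM against 7.04 for RNU4-1, 10.2 for RNU4-2 and 8.27 for U5 with TOE1. Whether capture grows with the number of uridines was not tested. The 107 nt of U6 and the 116 to 120 nt of U5 lie near the lower cut of the gel at 100 nt, and recovery by length was not tested.

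Ratios within a library need no scaling between libraries, and 3 were compared. RNU4-1 made up 44.4%, 36% and 38.9% of U4 reads with TOE1, and 34.8%, 60.9% and 52.2% without it. The lowest and highest values were both from depleted libraries, the lowest being the AG10 one, and their 95% Wilson intervals were 25.7% to 45.2% (31 of 89 reads) and 46.5% to 73.6% (28 of 46 reads). The mean difference was 9.51 percentage points (exact permutation test, 2-sided, p = 0.4, adjusted p = 0.6 over 3 ratios), and −4.95 points in AG10 libraries alone. U6 reads per U4 read were 6.89, 4.52 and 6.78 with TOE1, and 4.96, 4.67 and 3.83 without it. The groups overlapped through TOE1-present replicate 2, and the log2 ratio of U4 to U6 reads was 0.42 higher without TOE1 (exact permutation test, 2-sided, p = 0.3, adjusted p = 0.6). For U5 to U6 the log2 difference was −0.06 with 0.5 added to each count (exact permutation test, 2-sided, p = 1, adjusted p = 1). With 3 libraries against 3, the smallest p such a test can give is 0.1.

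Across the 6 libraries, the RNAs whose level was most like that of RNU4-1 among 85 others with at least 100 reads were the H/ACA snoRNAs SNORA51 and SNORA17B, with Pearson r of 0.855 and 0.851 of log2 CPM. SNORD33, a C/D snoRNA, and SCARNA5, a Cajal body RNA, were most like RNU4-2 at 0.898 and 0.889. SCARNA5 was also nearest to U5 and U6, at 0.862 and 0.699, followed by SNORA71D at 0.760 and SNORA14B at 0.644. These values describe 6 points that share libraries, depth and scaling, and several partners have few reads, 172 for SCARNA5 and 183 for SNORD33. SCARNA5 was highest in TOE1-depleted replicate 1 at 1073 CPM, the library in which RNU4-2, U5 and U6 were highest.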

How the data were processed

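The authors' deposited table was the only file used. Per the submitters' processing notes, STAR 2.7.8a and hg38 were used. How reads fitting several gene copies were assigned, the annotation, and any molecular identifiers were not stated in the labels or headers. Its per-library columns are whole-number read counts of each RNA, deposited unnormalised. The other columns are per condition: per the file headers, 3′ end positions within −10 to 50 nt, tail shares (a fraction of reads, printed as percent), and p-values. Total and genome-templated ends were told apart by the tail sums.

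Deposited p were adjusted by Benjamini-Hochberg over all RNAs with a p, threshold 0.05. Errors and 95% intervals were recovered from each difference and p, assuming a pooled-variance test on library means with 4 degrees of freedom. Counts were fitted in edgeR 4.0.16 (TMM, filterByExpr, quasi-likelihood, 2 groups of 3 libraries) under R 4.3.3. Alternatives used limma 3.58.1, DESeq2 1.42.0, other scalings, a read minimum of 100, a replicate block, AG10 libraries alone and each library left out. Log CPM used a prior count of 2. The procedures were tested on simulated data. Counting intervals cover counting error only. Sequences came from hg38 with GENCODE 44 gene models (189 of 190 identifiers found); those of U5 and U6 are not reported here.

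All 4 rows are named, with other spliceosomal RNAs from a list and, for each row, the 2 RNAs most alike in level. The rows and lists were chosen with earlier results of these data known. Same-numbered libraries had deviations correlated over all 101 RNAs (r of 0.907, 0.258 and 0.8075), but so had TOE1-present 3 with depleted 2 (0.8106) and TOE1-present 2 with depleted 3 (0.2751), so that replicate 1 stood against the rest. All rows of 5 RMRP, 7SK and U2 gene names were then left out (RMRP, RN7SK, AL162581.1, AC024051.4 and RNU2 WT). Of the 101 RNAs, 96 remained, and same-numbered r were 0.0206, 0.00627 and 0.147. In the edgeR fit without the rows of these 5 names the filter was applied anew, which left 99 RNAs.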

Additional observations from a re-analysis of the deposited data

How the results depend on the processing

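No end or tail difference of U4, U5 or U6 was called under any alternative run: limma's moderated test, a minimum of 100 reads per RNA or, for ends, the deposited Kolmogorov-Smirnov p. The lowest adjusted p among their end values was 0.0726, for the genome-templated end of U5 under limma's moderated test. For abundance, 0 of the 4 were called by edgeR with TMM and 1, RNU4-1, with library totals alone; the count was 0 under every other setting, from 0 to 0 with a library left out. The replicate block changed no call of the 4, while calls over all RNAs went from 8 to 18. It left the mean ratio differences at 9.51 points, 0.42 and −0.06 (exact sign permutation, p of 0.5, 0.5 and 1). Leaving out the rows of the 5 RMRP, 7SK and U2 gene names with that block also gave 0 of the 4. That alternative was chosen after seeing the data. With AG10 libraries alone, 1 of them depleted, the RNU4-1 share of U4 reads reversed to −4.95 points. With each library left out, that share ran from 3.72 to 16.7 points, the log2 U4 to U6 ratio from 0.31 to 0.62 and the log2 U5 to U6 ratio from −0.37 to 0.17. The U5 to U6 ratio was above 0 without TOE1-present replicate 3 (0.08), depleted replicate 1 (0.02) or depleted replicate 2 (0.17). The log2 abundance change ran from 0.46 to 1.03 for RNU4-1, from −0.29 to 0.71 for RNU4-2, from −0.25 to 0.27 for U5 and from −0.16 to 0.54 for U6. It reversed without depleted replicate 1 for RNU4-2 (−0.29), U5 (−0.25) and U6 (−0.16), and for U5 also without TOE1-present replicate 1 (−0.08) or 2 (−0.04); the cause was not tested. End positions and tails are deposited per condition, so no library could be left out of them. Depth limits RNU4-1, RNU4-2 and U5 most, with 7 to 58 reads in a library.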
